A study of Mus musculus with 10 samples.

Results

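The genes described here are 60 genes of the cell cycle and of DNA replication. They were taken by gene symbol, and all 60 had a row among the 10767 genes of the table. By their roles, 30 of them act mainly in S phase, the time of DNA synthesis, and 30 mainly in mitosis. Messenger RNA was sequenced from CD8+ cDC1, the conventional dendritic cells that cross-present antigen, of the spleen. The cells were sorted as live MHCII+CD11c+CD11b-CD8+ cells in 5 sorts, and each sort gave 1 library from Ppef2+/+ and 1 from Ppef2-/- mice, each from 3 pooled mice. All mice were untreated. The Ppef2-/- mice carry a knockout-first gene trap in Ppef2, which encodes a calcium-binding protein phosphatase, with loxP sites around the following exon. The allele is present in all cells of the mouse, so that the cDC1 developed among other mutant cells. The mRNA experiment asked whether loss of Ppef2 alters gene expression in these cells.

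A dividing cell makes the proteins of the cell cycle in waves. E2F transcription factors switch on the genes for replication before S phase, and the genes for mitosis follow in G2, mostly through a short promoter element called CHR (cell cycle genes homology region) together with CCAAT boxes. In the spleen, cDC1 arise from precursors that still divide, and a fraction of the cDC1 itself is in cycle. In bulk libraries, fewer cycling cells and less mRNA per cycling cell cannot be told apart.

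The promoters of both classes were searched for these elements. A promoter from RefSeq (GRCm38.p6, 250 bases before to 50 after the gene start) was matched for 50 of the 60 genes, 25 of each class, and for 8311 genes of the table. On both strands, the E2F site was searched as TTTCCCGC, TTTCGCGC, TTTGCCGC or TTTGGCGC, CHR as TTTGAA or TTCGAA, and the CCAAT box as CCAAT. CHR together with CCAAT was in the window of 21 of 25 mitosis genes (84%), compared to 5 of 25 S phase genes (20%) and 5.73% of the promoters of genes in the table. An E2F site was in the window of 9 of 25 S phase genes (36%), compared to 3 of 25 mitosis genes (12%) and 4.44% of the promoters of genes in the table. Over all 27025 promoters the shares were 7.58% for CHR with CCAAT and 2.35% for E2F.

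The 150 bases before the RefSeq gene start are printed for the genes that stood out in the comparison of the genotypes (Cenpw, Ube2c and Mcm3). They are also printed for Mki67 and Mcm6, the mitosis gene and the replicative helicase gene with the highest normalized counts. In the GENCODE M21 annotation, Cenpw and Ube2c start further upstream, at 30200560 and 164769898. By that annotation the last printed bases of both, with the CHR match of Ube2c, lie inside the gene. Capitals mark the matches to the 3 elements on either strand, so that TTCAAA is CHR and ATTGG is CCAAT read from the opposite strand. The regions are chr10:30200541-30200690 (minus strand) for Cenpw, chr2:164769779-164769928 (plus) for Ube2c, chr7:135716380-135716529 (minus) for Mki67, chr1:128359706-128359855 (minus) for Mcm6 and chr1:20820313-20820462 (minus) for Mcm3.
Cenpw: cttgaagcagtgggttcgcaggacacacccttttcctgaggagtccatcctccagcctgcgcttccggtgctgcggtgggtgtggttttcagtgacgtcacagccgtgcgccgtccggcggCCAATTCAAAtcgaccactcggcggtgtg
Ube2c: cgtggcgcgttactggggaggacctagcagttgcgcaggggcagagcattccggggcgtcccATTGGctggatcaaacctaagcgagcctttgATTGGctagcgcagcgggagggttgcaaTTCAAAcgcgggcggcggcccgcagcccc
Mki67: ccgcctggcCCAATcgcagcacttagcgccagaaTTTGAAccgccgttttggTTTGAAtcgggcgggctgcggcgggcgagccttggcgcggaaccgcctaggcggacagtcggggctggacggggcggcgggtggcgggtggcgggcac
Mcm6: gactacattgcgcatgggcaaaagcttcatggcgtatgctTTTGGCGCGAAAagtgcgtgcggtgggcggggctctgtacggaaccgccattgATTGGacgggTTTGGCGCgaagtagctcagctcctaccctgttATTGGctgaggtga
Mcm3: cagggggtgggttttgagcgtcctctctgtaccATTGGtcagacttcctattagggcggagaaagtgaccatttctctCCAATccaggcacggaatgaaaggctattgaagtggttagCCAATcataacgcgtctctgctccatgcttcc
The 3 mitosis genes have CHR beside CCAAT in this stretch. Mcm6 has 3 E2F matches, of which 2 overlap on opposite strands. Mcm3 has 3 CCAAT boxes and 0 E2F matches here, while its whole promoter window holds 2 E2F matches. A match of letters is not a measurement of factor binding.

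The values are normalized counts: reads per gene divided by a size factor. In 10721 genes the 2 deposited values per sort have a sum that does not change between sorts, so that the level of each sort had been removed and a high value in 1 genotype is mirrored by a low value in the other. Reads were therefore calculated back for 9627 genes with values under 1000, and reads times the value of 1 read are called restored level below. Of the 60 genes, 58 had a restored level (29 of each class), and Mki67 and Pcna had only deposited normalized counts. The libraries held 1396295 to 2273524 reads of resolved genes for Ppef2+/+ and 1508367 to 4409545 for Ppef2-/-. Ppef2 had 95 to 228 reads in Ppef2+/+ libraries and 0 to 8 in Ppef2-/- libraries. All 15 cDC1 marker genes were measured, and their summed normalized counts were 89328 to 92560 in Ppef2+/+ and 89371 to 92603 in Ppef2-/- libraries. These are deposited values, so that the 2 ranges mirror each other through the constant sums. Only 2 of the 15 had a restored level, with sums of 854 to 1110 in Ppef2+/+ and 882 to 1071 in Ppef2-/-.

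Genes of the cell cycle were expressed at a moderate level in CD8+ cDC1 of both genotypes. The mean normalized count over the 10 libraries ranged from 11.2 for Cenpw to 1349.9 for Mki67, the gene of the proliferation marker Ki-67, with a median of 122 compared to 170.1 for all genes. Since long transcripts give more reads, levels of different genes are compared per kb of exon (GENCODE M21). The length joins the exons of all annotated transcripts of a gene, so that values per kb also depend on which transcripts are annotated. The median was 42.0 normalized counts per kb for the 60 genes and 52.9 for the 10705 genes with an exon length. Above the latter were 24 of the 60 genes. S phase genes had a median of 61.1 and mitosis genes of 31.0 normalized counts per kb.

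**Figure D1:**
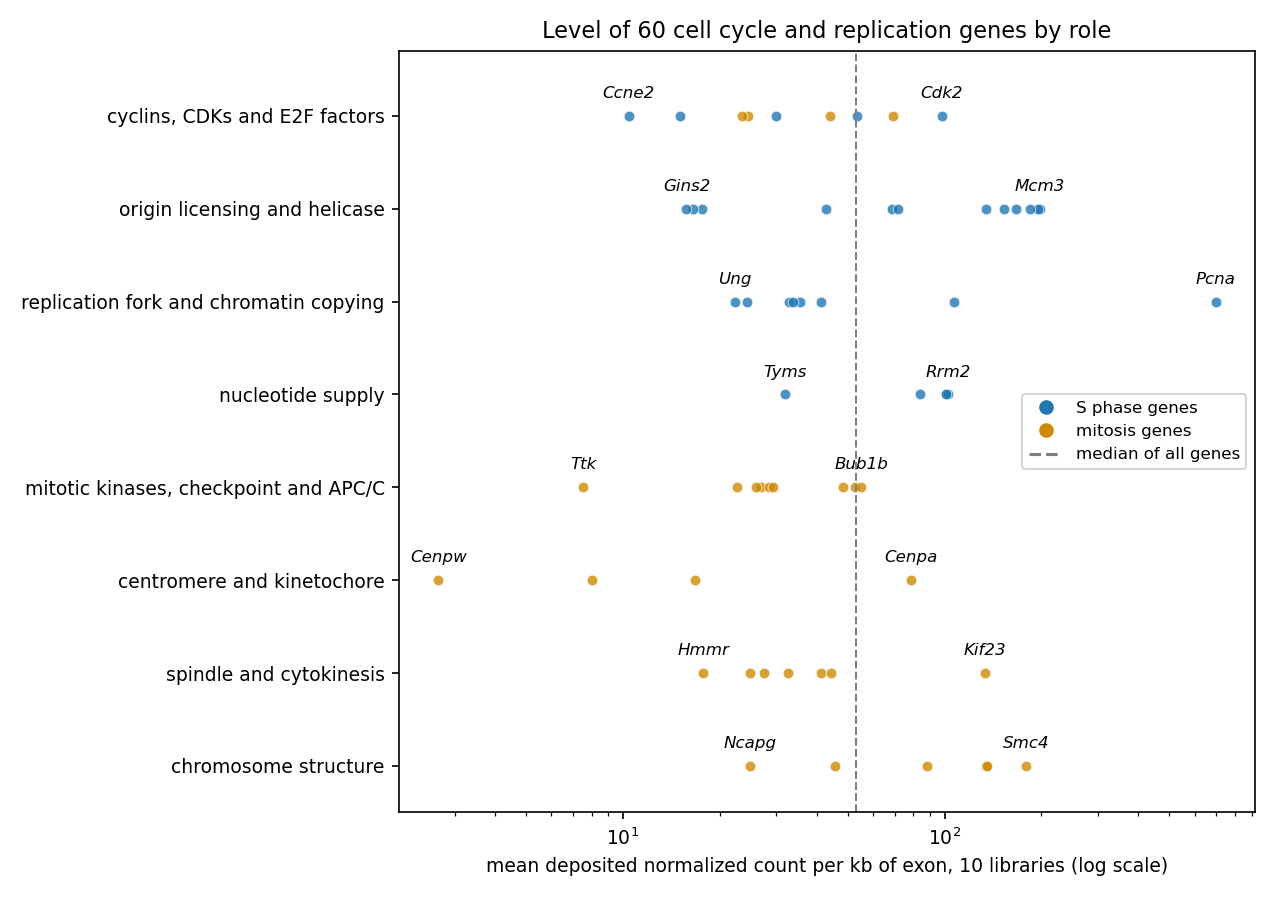
Mean deposited normalized count per kb of exon over 10 libraries (log scale) of each of the 60 genes, in rows by role, with the highest and the lowest gene of each role named; blue points are S phase genes, orange points mitosis genes, and the dashed line is the median of all genes, 52.9. Pcna stands alone at 697, the Mcm subunits sit together between 134 and 198, and Cenpw is lowest at 2.67.

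Among the genes of the replication fork, Pcna, the sliding clamp that holds DNA polymerases on the template, reached 697 normalized counts per kb and was the only member in the top 10% of all genes, at percentile 96.1. Next in this role was Uhrf1, which guides maintenance methylation onto new DNA, with 107. The polymerase subunits Pola1 and Pole, the clamp loader subunits Rfc3, Rfc4 and Rfc5 and the uracil glycosylase Ung lay between 22.3 and 41.3.

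The 6 subunits of the MCM helicase, which is loaded on origins as a ring of Mcm2 to Mcm7, were close to each other. They had 153 (Mcm2), 198 (Mcm3), 134 (Mcm4), 196 (Mcm5), 184 (Mcm6) and 167 (Mcm7) normalized counts per kb. The factors that load or activate this ring were lower. Cdt1 had 68.8 and its inhibitor Gmnn 71.5, while the loader Cdc6 had 17.6, Mcm10 16.5, Cdc45 42.7 and Gins2 15.8 normalized counts per kb. Exons of Gins2 share 2758 bases with Gse1 on the opposite strand. The study's library protocol describes no step that keeps the strand, so that reads of both genes cannot be told apart there.

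Of 5 enzymes of nucleotide supply, Tyms was lower than the other 4, with 103 normalized counts per kb for Rrm2 and 101 for Rrm1, the subunits of ribonucleotide reductase, 101 for the thymidine kinase Tk1, 83.8 for the dUTPase Dut and 31.9 for the thymidylate synthase Tyms. In the role of cyclins, CDKs and E2F factors, the highest was Cdk2 with 98.0 and the lowest was its partner Ccne2 with 10.4 normalized counts per kb. The mitotic kinase Cdk1 had 23.5, its cyclins Ccnb1 and Ccnb2 24.5 and 68.9, and Ccna2 44.1. Cdk1 and Ccnb2 had similar mean normalized counts, 105.0 and 105.5, over joined exon lengths of 4466 and 1531 bp.

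Of the mitosis genes, those of chromosome structure were highest. The condensin subunit Smc4 had 179, Top2a, the topoisomerase that untangles sister chromatids, 136, Mki67 134 and Ncapd2 88.5 normalized counts per kb, whereas Ncapg had 24.9. Kif23, a kinesin of the central spindle, had 133, compared to 17.8 for Hmmr. Kinases and checkpoint genes ranged from 7.53 for Ttk, the kinase that starts the spindle checkpoint, to 55.0 for Bub1b. Of the centromere genes, Cenpa, the histone H3 variant that marks centromeres, had 78.5 and Cenpw 2.67, at percentile 1.53 of all genes.

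The spread between libraries was close to that of all resolved genes. Over the 10 libraries, the coefficient of variation of the restored level was 3.73% for E2f1 at the lowest and 50.5% for Cenpw at the highest, with a median of 13.98% over the 58 genes and 13.99% over all resolved genes. Counting error alone gives a median of 9.69%, and 7.92% for E2f1, whose CV lay below it. The CV was over 1.5 times the counting error for 25 of 58 genes (43.1%) and for 53.3% of resolved genes. Among the 6 subunits of the MCM helicase the CV was between 1.09 (Mcm2) and 2.34 (Mcm3) times the counting error. Mcm2 had restored levels of 527, 518, 509.6, 481 and 526 in Ppef2+/+ sorts 1 to 5 and 495, 555, 556, 495 and 498 in Ppef2-/-.

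Summed over genes, the S phase class was higher in Ppef2-/- in some sorts and lower in others, and the mitosis class was slightly lower in Ppef2-/- in each sort. The 29 S phase genes had a summed restored level of 6729 ± 140.1 (SD, n = 5) in Ppef2+/+ and 6843 ± 319 in Ppef2-/- libraries, higher in 2 of 5 sorts and lower in 3. The 29 mitosis genes had 5180 ± 434 in Ppef2+/+ and 4886 ± 251 in Ppef2-/-, a ratio of 0.943, and their sum was lower in Ppef2-/- in 5 of 5 sorts. The difference between the means was smaller than the spread of the Ppef2+/+ libraries. That spread includes differences between sorts, whose means over both genotypes ranged from 4696 to 5427. A sum is weighted to the genes with the highest levels. Gene by gene, 13, 13, 9, 11 and 15 of the 29 mitosis genes had a higher restored level in Ppef2-/- in sorts 1 to 5. Of all resolved genes 49.0 to 51.3% did. The median log2 difference of the mitosis genes was -0.15 in sort 3 and 0.03 in sort 5.

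By library, the summed restored level of the mitosis genes was 4756, 5255, 5828, 4804 and 5255 in Ppef2+/+ sorts 1 to 5. In Ppef2-/- it was 4675, 4947, 5027, 4587 and 5196. The groups overlap, and the Ppef2+/+ library of sort 3 was the highest of all 10. As a share of the reads of resolved genes, mitosis genes took 0.278% in that library (95% Clopper-Pearson interval 0.269 to 0.287%), compared to 0.240% (0.234 to 0.247%) in its Ppef2-/- partner. In sort 5 the shares were 0.255% (0.249 to 0.262%) and 0.252% (0.244 to 0.260%), with overlapping intervals. These intervals cover counting error only. The ratio of the mitosis sum to the S phase sum was 0.870 in Ppef2+/+ sort 3 and 0.691 in Ppef2-/- sort 3, and between 0.670 and 0.765 in the other 8 libraries.

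**Figure D2:**
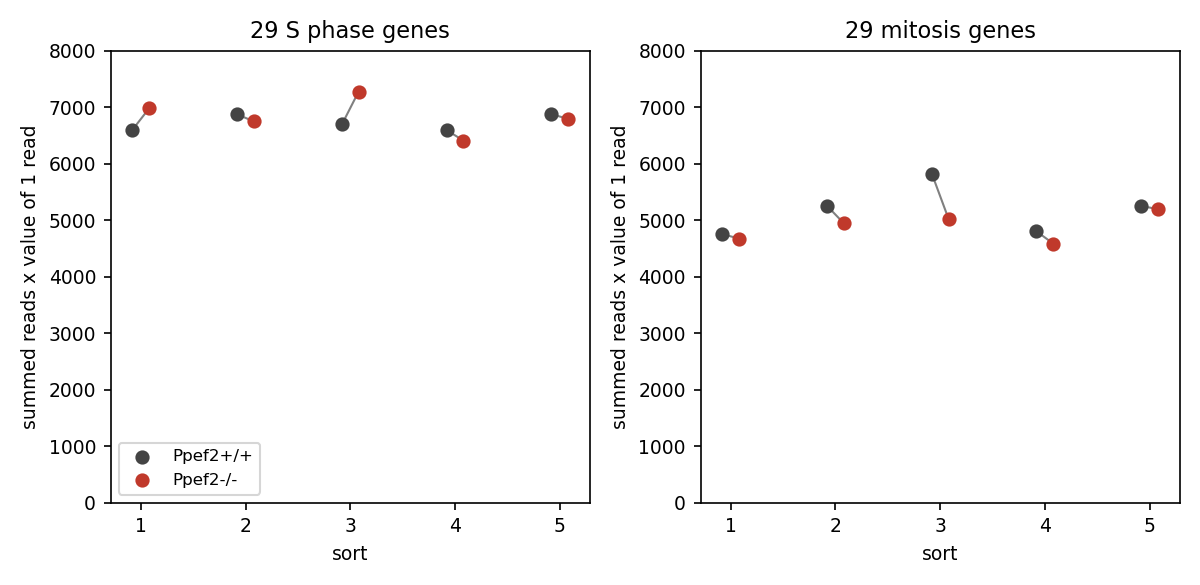
Summed restored level (reads times the value of 1 read, in normalized counts, from 0) of the 29 S phase genes (left) and the 29 mitosis genes (right) in each sort; each point is 1 library, grey for Ppef2+/+ and red for Ppef2-/-, joined within a sort. The S phase sums stay between 6410 and 7278, and the mitosis sums are lower in Ppef2-/- in each sort, with the widest gap in sort 3 (5828 to 5027).

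Within sorts, the median over the 60 genes of log2(Ppef2-/- + 1) minus log2(Ppef2+/+ + 1), on deposited normalized counts, lay near 0. It was 0.03, 0.00, -0.06, -0.09 and 0.00 in sorts 1 to 5. The median over all genes was between -0.01 and 0.01 in the 5 sorts. In sorts 1 to 5, 38, 31, 28, 22 and 30 of the 60 genes were higher in Ppef2-/-, and of all genes 49.6, 49.0, 50.2, 52.3 and 50.2%. The 5 sort medians averaged -0.02 ± 0.05 (SD, n = 5), so that no direction was common to the sorts.

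The 2 classes, taken apart, had these medians. The median of the S phase genes was 0.08, 0.09, 0.05, -0.09 and 0.01 in sorts 1 to 5, with 24, 18, 19, 10 and 15 of 30 genes higher in Ppef2-/-. The median of the mitosis genes was -0.02, -0.09, -0.20, -0.08 and 0.00, with 14, 13, 9, 12 and 15 of 30 genes higher. Averaged over the sorts this was 0.03 ± 0.07 for S phase and -0.08 ± 0.08 for mitosis genes (SD, n = 5). Both averages were at most as large as the spread between sorts.

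**Figure D3:**
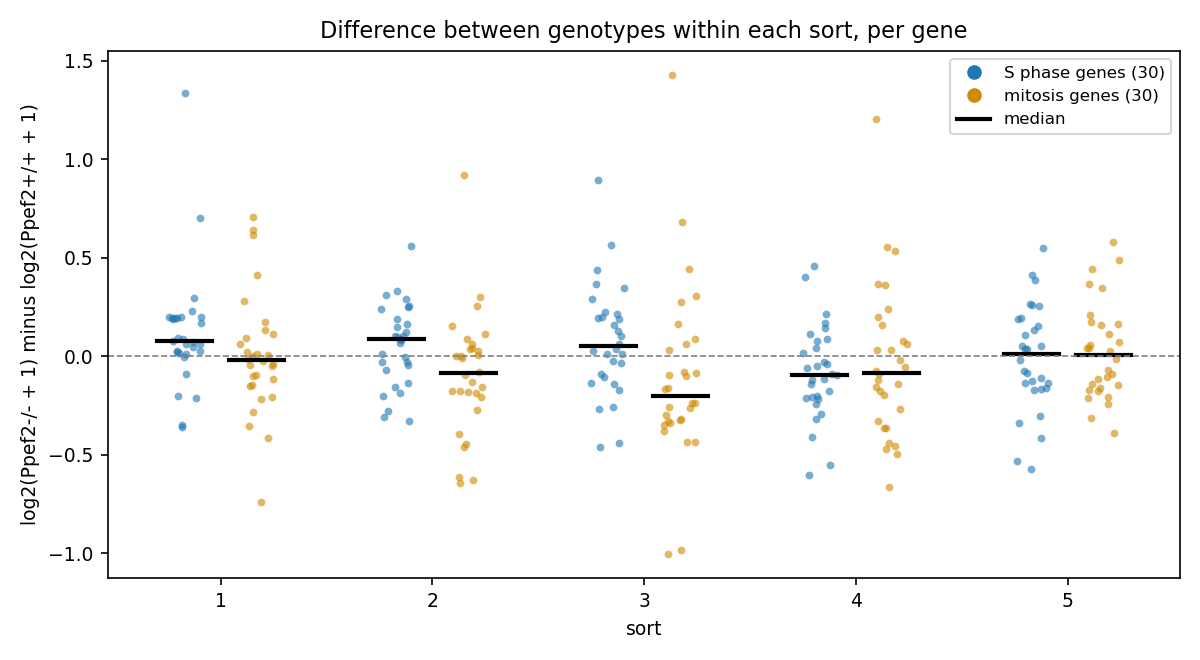
Difference between the genotypes within each sort, log2(Ppef2-/- + 1) minus log2(Ppef2+/+ + 1) of the deposited normalized counts; each point is 1 gene, blue for the 30 S phase and orange for the 30 mitosis genes, and black lines are medians. Medians lie between -0.20 (mitosis, sort 3) and 0.09 (S phase, sort 2), while single genes scatter widely around 0.

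Gene by gene, 2 of the 60 genes had an adjusted p under 0.05 in limma across all 10767 genes without a term for the sort, Cenpw and Ube2c, and 0.957% of all genes did. At an unadjusted p under 0.05, 11 of the 60 genes were called (4 higher, 7 lower in Ppef2-/-), compared to 17.5% of all genes (9.2% higher, 8.33% lower). Without a term for the sort, the removed sort levels still count as free observations, so that standard errors and p-values are too small. With the sort as a block, which fits a table whose sort levels had been removed, 0 of the 60 genes had an adjusted p under 0.05, and 0.00929% of all genes did, which is Ppef2 alone. In the blocked limma fit 3 of the 60 genes had an unadjusted p under 0.05 (Mcm3, Ube2c and Cenpw), compared to 4.29% of all genes. In limma voom on the reads, also with the sort as a block, 0 of 58 genes had an adjusted p under 0.05 and 3 an unadjusted one, compared to 4.6% of resolved genes.

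The median log2 fold change (Ppef2-/- minus Ppef2+/+) of the 60 genes was -0.00 and that of all genes 0.00, with 29 genes higher and 31 lower. It was 0.03 for S phase genes (20 higher, 10 lower) and -0.09 for mitosis genes (9 higher, 21 lower). Of the 60 genes, 55 were within 0.25 of 0 on the log2 scale. In 5 of 5 sorts, 4 genes were higher in Ppef2-/- (E2f1, Mcm3, Mcm4 and Cenpw), compared to 3.26% of all genes, and 2 were lower (Ube2c and Cenpa), compared to 2.92%. In the deposited values the genotypes do not overlap for these 6 genes, which follows from the constant sums (6.18% of all genes), but in restored levels all 6 overlap (0.54% of resolved genes do not).

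**Figure D4:**
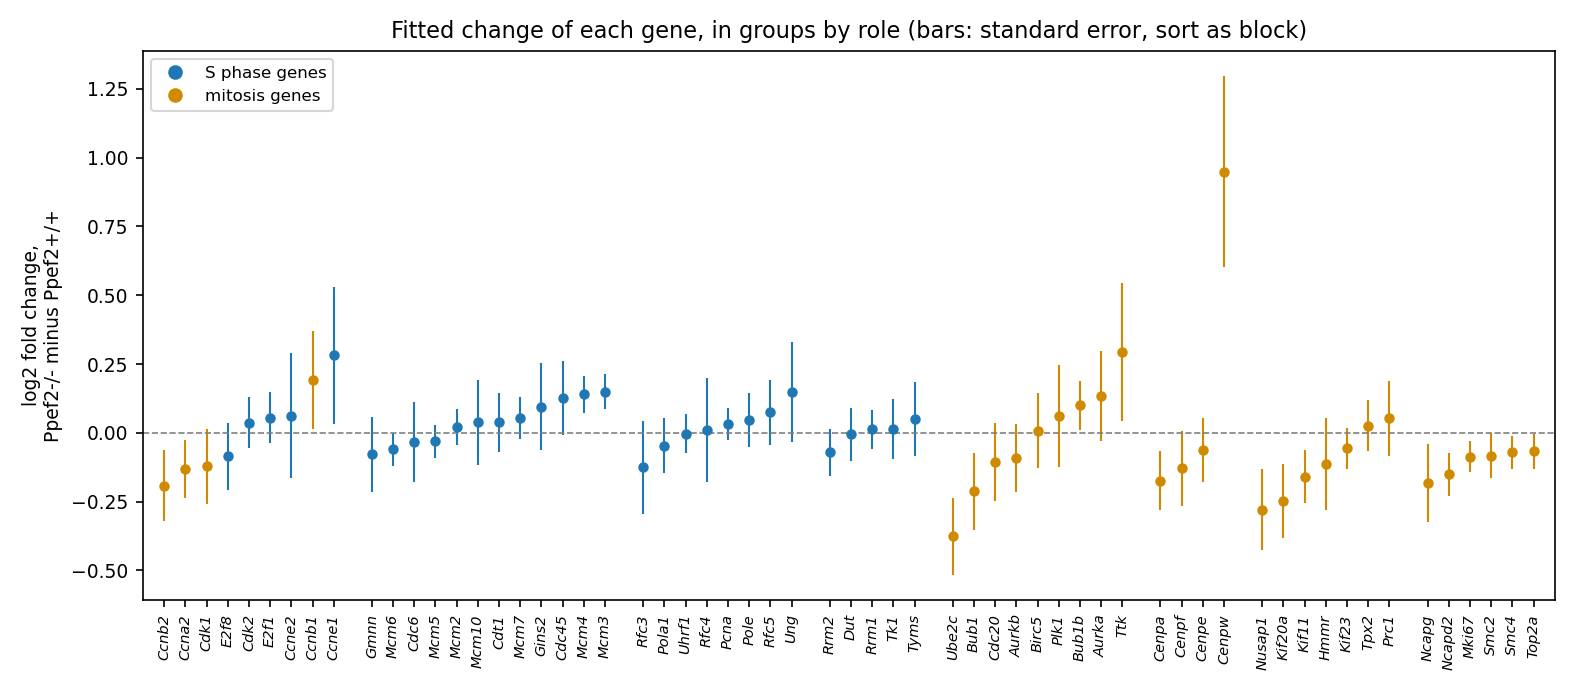
Fitted log2 fold change (Ppef2-/- minus Ppef2+/+, deposited normalized counts + 1) of each of the 60 genes, in 8 groups by role, with the standard error of the fit with the sort as a block; blue points are S phase and orange points mitosis genes. Apart from Cenpw at 0.95, the genes lie between -0.38 (Ube2c) and 0.29 (Ttk), and all 6 genes of chromosome structure are below 0.

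Cenpw encodes a histone-fold subunit of the inner kinetochore and had the highest log2 fold change of the 60 genes. It lies on the minus strand of chromosome 10 (mm10, 30194569 to 30200560 in GENCODE M21). Its restored level was 2.74, 5.45, 7.52, 8.32 and 12.9 in Ppef2+/+ sorts 1 to 5 and 7.90, 13, 18.7, 18.0 and 17.8 in Ppef2-/-. Each Ppef2-/- library was above its partner of the same sort, while the lowest Ppef2-/- library was below the 2 highest Ppef2+/+ libraries. The means were 7.39 ± 3.78 and 15.1 ± 4.61 (SD, n = 5). The Ppef2+/+ mean was under 10, so that Cenpw passed the minimum mean of the table only through Ppef2-/-. The study's own list of changed genes, from the same libraries, also holds Cenpw, so that its call here is no independent support. The log2 fold change was 0.95 with a standard error of 0.18 and an adjusted p of 0.0342 in limma without the block, and with the block the standard error was 0.35 and the adjusted p 0.995. These levels rest on 2, 4, 5, 9 and 13 reads in Ppef2+/+ and 17, 22, 20, 17 and 13 in Ppef2-/- libraries. In sort 5, where both had 13 reads, the Ppef2-/- library was the shallower.

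Ube2c, the ubiquitin-conjugating enzyme that works with the anaphase-promoting complex, had the lowest log2 fold change. It lies on the plus strand of chromosome 2 (164769898 to 164778822 in GENCODE M21). Its restored level was 71.2, 87.2, 88.7, 94.3 and 90.6 in Ppef2+/+ sorts 1 to 5 and 59.4, 62.6, 71.2, 59.2 and 79.4 in Ppef2-/-. All Ppef2-/- libraries were below their partners, and the ranges overlap through Ppef2+/+ sort 1. The log2 fold change was -0.38 with a standard error of 0.07 and an adjusted p of 0.0417 in limma, and with the block the standard error was 0.14 and the adjusted p 0.995. Exons of Ube2c share 592 bases with Tnnc2 on the opposite strand, which is not among the genes of the table.

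Cdc20, the activator with which the same complex targets mitotic cyclins, had a log2 fold change of -0.11 (adjusted p = 0.613 in limma). Ttk had restored levels of 13.7 to 27.3 in Ppef2+/+ and 21.5 to 27.4 in Ppef2-/- libraries. Its log2 fold change was 0.29 with a standard error of 0.13 without the block and 0.25 with it. Its adjusted p in limma was 0.264 without the block and 0.995 with it. Bub1b, a kinase-like protein of the spindle checkpoint, was at 195 ± 18.5 and 209 ± 29.1 (SD, n = 5).

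Cenpa was lower in Ppef2-/- in each sort, by less than it varied between sorts. Its restored level was 104, 117, 174, 148 and 139 in Ppef2+/+ sorts 1 to 5 and 102, 92.8, 145, 135 and 130.1 in Ppef2-/-. Both genotypes were lowest in sorts 1 and 2 and highest in sort 3. The log2 fold change was -0.17 with a standard error of 0.05 and an adjusted p of 0.127 in limma, and 0.995 with the block. Cenpe and Cenpf, the other kinetochore genes, had log2 fold changes of -0.06 and -0.13.

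**Figure D5:**
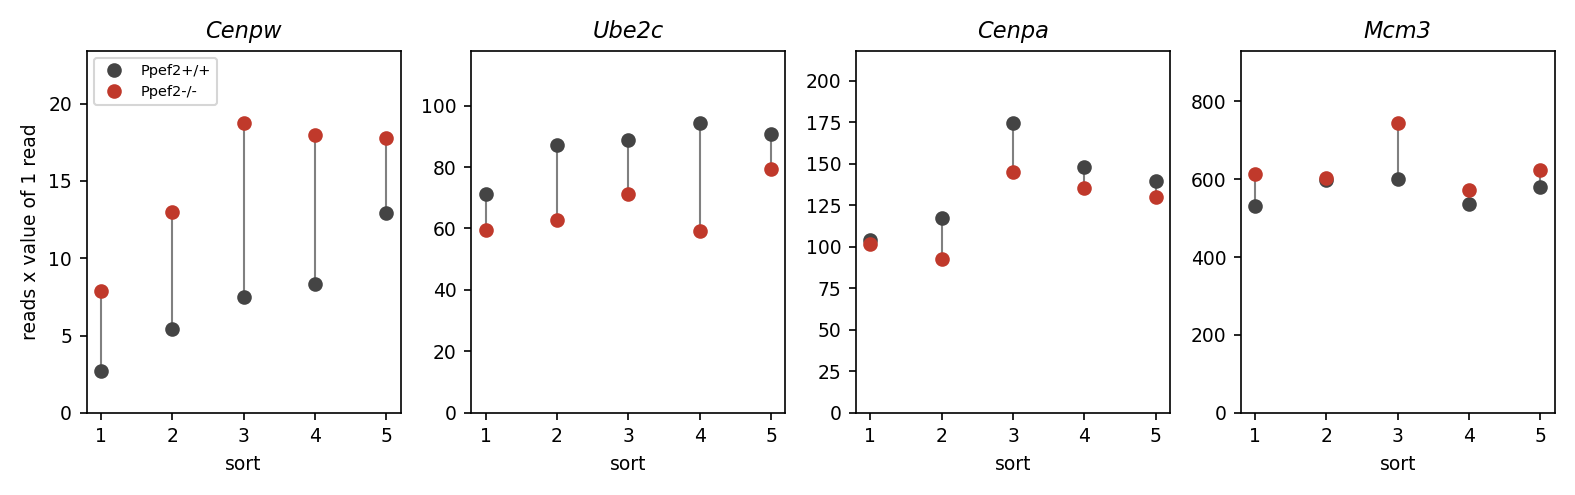
Restored level (reads times the value of 1 read, in normalized counts, each axis from 0) of Cenpw, Ube2c, Cenpa and Mcm3 in the 5 sorts; grey points are Ppef2+/+ and red points Ppef2-/- libraries, joined within a sort. Cenpw and Mcm3 are higher and Ube2c and Cenpa lower in Ppef2-/- in 5 of 5 sorts, and the ranges of the genotypes overlap for each of the 4 genes.

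In the MCM ring, Mcm3 and Mcm4 were higher in Ppef2-/- in each sort. Mcm3 had restored levels of 531, 598, 599.8, 537 and 579.6 in Ppef2+/+ sorts 1 to 5 and 614, 602, 744, 573 and 624 in Ppef2-/-. Mcm4 had 479, 431, 436, 481 and 464 in Ppef2+/+ and 504, 458, 557, 528 and 477 in Ppef2-/-. The Ppef2-/- library of sort 3 was highest for both genes. Their log2 fold changes were 0.15 and 0.14, with a standard error of 0.04 each without the block and 0.06 and 0.07 with it. The adjusted p in limma was 0.1001 for Mcm3 and 0.122 for Mcm4 without the block, and 0.995 for both with it. The log2 fold changes of the other subunits of the ring were 0.02 (Mcm2), -0.03 (Mcm5), -0.06 (Mcm6) and 0.05 (Mcm7), and whether they differ from those of Mcm3 and Mcm4 was not tested.

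The spindle genes Nusap1, Kif11 and Kif20a and the condensin gene Ncapd2 had an unadjusted p under 0.05 without the block and not with it. Nusap1, a microtubule-bundling protein, had restored levels of 98.6, 99.5, 150.3, 98.0 and 104 in Ppef2+/+ sorts 1 to 5 and 95.2, 86.9, 82.4, 75.03 and 115 in Ppef2-/-. The Ppef2+/+ library of sort 3 stood far above the other 4. The same library was the highest of all 10 for Kif20a, a kinesin of cytokinesis, with 191, and for Ncapd2, with 507. The log2 fold change of Nusap1 was -0.28, compared to -0.21 without this library and -0.17 without its Ppef2-/- partner, and that of Kif20a was -0.25, compared to -0.17 and -0.14. The motor Kif11, which pushes spindle poles apart, was instead lowest in sort 1, at 151 in Ppef2+/+ and 167 in Ppef2-/-, compared to 186 to 260.4 in the other libraries. Exons of Kif20a share 1271 bases with Cdc23 and those of Nusap1 172 bases with Oip5, both on opposite strands. Cdc23 is among the genes of the table and Oip5 is not.

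The 6 genes of chromosome structure had log2 fold changes below 0, of 0.07 to 0.18 in size, but in sorts 1 to 5, 3, 2, 0, 3 and 3 of them were higher in Ppef2-/-. An adjusted p under 0.05 in limma was found for 0 of them and an unadjusted one, without the block, for 2 (Mki67 and Ncapd2), and 8.33% of all genes were lower at this unadjusted p. Mki67 had deposited normalized counts of 1349.6, 1447, 1460.2, 1313 and 1383 in Ppef2+/+ sorts 1 to 5 and 1350.2, 1253, 1239.6, 1387 and 1317 in Ppef2-/-. It was lower in Ppef2-/- in 3 of 5 sorts, and the ranges overlap. The log2 fold change was -0.09 with a standard error of 0.04 and an adjusted p of 0.277, and 0.995 with the block. Top2a had restored levels of 652, 768, 848, 638 and 724 in Ppef2+/+ and 657, 676, 719, 652 and 760.0 in Ppef2-/-, with a log2 fold change of -0.07 (adjusted p = 0.459 in limma).

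The ranges of both genotypes also overlapped for the remaining genes with a central role. Pcna had deposited normalized counts of 986 to 1117 in Ppef2+/+ and 999.8 to 1131 in Ppef2-/- libraries. Its log2 fold change was 0.03 ± 0.04 (SE) without the block, and with the block the standard error was 0.06. Cdk1 had restored levels of 120.5, 113, 96.2, 115 and 103 in Ppef2+/+ and 90.1, 102, 128, 81.4 and 101 in Ppef2-/-, lower in 4 of 5 sorts, with a log2 fold change of -0.12 ± 0.10. Ccnb1 had 27.4, 66.8, 72.2, 45.3 and 72.7 in Ppef2+/+ and 57.1, 47.9, 85.2, 68.7 and 65.7 in Ppef2-/-, with a log2 fold change of 0.19 ± 0.14. These standard errors are also without the block, and with it they were 0.14 for Cdk1 and 0.18 for Ccnb1. The adjusted p in limma was 0.584 for Cdk1 and 0.503 for Ccnb1 without the block, and 0.995 for both with it. Among the others, log2 fold changes were 0.04 for Cdk2, 0.06 for Ccne2, 0.15 for Ung, -0.07 for Rrm2 and 0.05 for Tyms.

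Other genes of the pathway were read from lists of similar function. Of 12 genes of G1 entry, 0 had an adjusted p under 0.05, and the highest was Ccnd1, the cyclin that couples growth signals to the cycle, with 388 normalized counts per kb and a log2 fold change of -0.00. Of 18 cell cycle inhibitors and pocket protein genes 15 were measured and 0 were called. The highest of them per kb was E2f4, a repressing E2F factor, with 182, and Cdkn1b, which encodes the CDK inhibitor p27, had 169.9. Of 33 further replication genes 0 were called, with Orc3 of the origin recognition complex highest at 127 per kb, and of 17 genes of the DNA damage checkpoint and repair 0 were called, with Trp53 highest at 289. Of 46 further mitosis genes 45 were measured and 1 was called. This was Bub3, a partner of Bub1 and Bub1b in the spindle checkpoint, with 274 normalized counts in Ppef2+/+ and 317 in Ppef2-/-, a log2 fold change of 0.21 and an adjusted p of 0.0348 in limma (0.995 with the block). The highest of this list was H2afz, which encodes the histone variant H2A.Z and is not particular to mitosis, with 3148 per kb. At an unadjusted p under 0.05 in limma without the block, 0 genes of G1 entry were called, 3 of the inhibitor list were higher and 2 lower, 5 further replication genes were higher and 3 lower, 3 DNA damage genes were higher and 1 lower, and 3 further mitosis genes were higher and 7 lower, compared to 9.2% of all genes higher and 8.33% lower. With the block these counts were 0, 3, 2, 0 and 3, compared to 4.29% of all genes, and 0 genes of the 5 lists had an adjusted p under 0.05. The median log2 fold changes of the 5 lists lay between -0.04 and 0.04.

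Genes of other cells of the spleen summed to far less than those of cDC1. The highest gene of each list is given here by its normalized count, not divided by length. Of 16 erythroid genes 7 were measured, 6 globin genes, some of which are near-identical copies, and Car2. Their summed restored level was 185, 228, 177, 232 and 395 in Ppef2+/+ sorts 1 to 5 and 329, 329, 287, 272 and 263 in Ppef2-/-. It was thus higher in Ppef2-/- except in sort 5. The highest was Hba-a1 with 77.9 normalized counts. Values for Klf1 and Gata1 were not analysed here. Of 15 B cell genes 4 were measured, led by Fcrla with 159.9 normalized counts, with a summed restored level of 340 to 542 in Ppef2+/+ and 391 to 561 in Ppef2-/-, and Cd79a and Pax5 were not analysed here. Of 13 T and NK cell genes 2 were measured, led by Cd4 with 197. The cDC2 genes (7 of 7 measured, led by Sirpa with 345, and per kb by Cd209a with 88.4) had a summed restored level of 575 to 737 in Ppef2+/+ and 514 to 859 in Ppef2-/-. Their sum was lower in Ppef2-/- except in sort 5. The macrophage and monocyte genes (11 of 12 measured, led by Cd68 with 790.0) had 1413 to 1805 and 1478 to 1652. Of 10 neutrophil and progenitor genes 3 were measured, and Kit, which cDC1 share with progenitors, had 1995 normalized counts. Of these lists and the cDC1 genes, 0 genes had an adjusted p under 0.05 in limma, with or without the block. At an unadjusted p under 0.05 without the block, 2 erythroid genes were higher, 1 macrophage gene was higher and 1 lower, and 1 cDC1 gene was higher and 2 were lower, compared to 9.2% of all genes higher and 8.33% lower.

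Of 8 genes of plasmacytoid DC (pDC) 7 were measured, of which 6 had a log2 fold change below 0, 2 had an unadjusted p under 0.05 in limma without the block (Tcf4 and Siglech, both lower, compared to 8.33% of all genes lower) and 1 had an adjusted one. The 7 genes had a summed restored level of 1045 to 1431 in Ppef2+/+ and 989 to 1132 in Ppef2-/-. Within each sort their sum was lower in Ppef2-/-. The highest by normalized count was Tcf4, the defining transcription factor of pDC, with 383, while per kb it was Bst2 with 353. Tcf4 had a log2 fold change of -0.31 and an adjusted p of 0.0182 in limma (0.711 with the block). The summed restored level of the mitosis genes was also lower in Ppef2-/- in 5 of 5 sorts, and the part of pDC genes in this was not tested.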

How the data were processed

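Messenger RNA of CD8+ cDC1 was sequenced in 10 libraries, 5 per genotype. Single-end reads of 50 bp were aligned by the authors to mm10 (HISAT in the methods, TopHat2 2.0.3 in the submitters' processing notes) and counted per RefSeq gene in Partek 6.6. DESeq2 size factors were applied, values under 1 were set to 1, and genes with a mean under 10 in both genotypes were dropped. The deposited values are this normalized signal, and 0 columns were left unused.

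Libraries with the same sort number were taken as pairs: deviations of both libraries of a sort correlated with r = -1.00, since their sums are constant. Reads were solved from these sums and the value of 1 read (0.464 to 1.50). In 551 of 557 low genes the solved sums added up over the sorts, compared to at most 8 for the next pair of values.

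Genotypes were compared with limma 3.58.1 (R 4.3.3, eBayes with trend) on log2(deposited normalized count + 1) without a block, as in the study's one-way model, with two-sided p-values adjusted over 10767 genes by the method of Benjamini and Hochberg. The scripts were tested on simulated data. Members and lists were chosen with earlier results of these data known. Named are 6 main genes (Mki67, Top2a, Pcna, Cdk1, Ccnb1, Cenpw), the highest and lowest gene of each role per kb, genes with an unadjusted p under 0.05 in either fit, and of each list the highest gene and those with an adjusted p under 0.05. Other members named with values were chosen after these were seen. Alternatives were other pseudocounts (0.5, 10), a minimum mean of 20, the sort as a block, equal medians, eBayes without trend, restored levels, voom on reads and each library left out.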

Additional observations from a re-analysis of the deposited data

Results flagged for a closer look

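In 62 groups of 5 libraries that were examined for a single library far from the others, 2 had one, and chance, which gives about 1 in 20, would give 3.1. Both times it was the Ppef2+/+ library of sort 3. For Nusap1 its restored level was 150.3, compared to 98.0 to 104 in the other Ppef2+/+ libraries. For Gins2, a subunit of the GINS complex of the replicative helicase, it was 81.2, compared to 51.8 to 59.1. The median log2 fold change of the mitosis genes was -0.09 with and without this library, and that of the S phase genes 0.03 with and 0.02 without it, although its mirrored values remain in the Ppef2-/- library of sort 3.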

How the results depend on the processing

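The sort as a replicate block left 1 gene and 0 of the 60 members with an adjusted p under 0.05 (103 and 2 without it), and 3 members with an unadjusted one (11 without it). Limma on restored levels gave 1 gene, 0 members and 2 members, and limma voom on reads with the sort as replicate block gave 2 genes, 0 members and 3 members. A minimum mean of 20 left 1 member with an adjusted p under 0.05, since Cenpw was then not tested, and eBayes without a trend gave 193 genes. With 1 library left out, 1 to 23 genes and 0 members had an adjusted p under 0.05. An unadjusted one was found for 6 to 11 members, where the 6 came without Ppef2+/+ or Ppef2-/- sort 3. Of all genes, 17.5% had an unadjusted p under 0.05 in limma without the block, 4.29% with it and 4.6% in voom. This share was not counted for restored levels or with 1 library left out, so those member counts cannot be set against it. Over all alternatives, the adjusted p lay between 0.00857 and 1.00 for Cenpw, which stayed under 0.05 in 4 of 17, and between 0.0177 and 1.00 for Ube2c (5 of 18). The log2 fold change of Ppef2 was -5.39 to -4.33 with 1 library left out, at an adjusted p of up to 0.0713. That of Ccne2 turned to -0.00360 on restored levels and ranged from -0.0230 to 0.147 with 1 library left out, and that of Tyms from -0.00133 to 0.110. The median over the 60 genes under each alternative, and the within-sort medians under other pseudocounts, the minimum mean, equal medians and restored levels, moved by less than their spread between sorts. Genes at a level as low as that of Cenpw are limited by depth.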
